A study of Mus musculus with 2 samples.

Results

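Translation initiation factors are the proteins that bring the small ribosomal subunit, the initiator tRNA and an mRNA together and set the ribosome on a start codon. Their genes were taken from long-read RNA sequencing of C2C12, a mouse myoblast line that the labels trace to crushed thigh muscle of C3H mice and to the ATCC collection. All annotated genes whose symbol begins with Eif and a digit were members, apart from the Eif2ak kinases and pseudogenes named with -ps. This gave 48 members among 14198 annotated genes with reads in either library. The series holds 1 group of 2 biological replicates of total RNA, with no treatment, so each comparison is between replicate 1 and replicate 2. The labels give no culture condition, passage or differentiation state, and nothing says whether the replicates came from separate cultures, so a p-value sets the difference between these 2 libraries against counting error alone.

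Most mRNAs are recruited through their cap. The eIF4F complex joins the cap-binding protein eIF4E, the scaffold eIF4G and the RNA helicase eIF4A, and the 4E-BP proteins block it by occupying eIF4E. The small subunit arrives carrying eIF1, eIF1A, eIF3 and the initiator tRNA on eIF2 bound to GTP. The exchange factor eIF2B recharges eIF2 after each round, eIF5 and eIF5B act at start codon recognition and subunit joining, and eIF5A serves peptide bond formation more than initiation.

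The results turn on alternative structures of 3 genes, whose coding bases are shown here from GENCODE M21 transcripts on mm10 (GRCm38), 5′ to 3′ on the coding strand. In Eif4h (chromosome 5, minus strand), which encodes a stimulator of eIF4A, capitals mark a 60-base exon at 134624441 to 134624500 that Eif4h-205 keeps and Eif4h-201 leaves out. In Eif4a2 (chromosome 16, plus strand), an eIF4A helicase, capitals mark first the 3 bases that an upstream splice acceptor adds to the second exon. In the next pair of Eif4a2 lines they mark the stop codon that follows when the alternative exon at 23112351 to 23112457 is used, and the bases read from the usual last exon in its place. In Eif4e2 (chromosome 1, plus strand), a relative of eIF4E, they mark the coding bases of 2 alternative first exons.
Eif4h-205: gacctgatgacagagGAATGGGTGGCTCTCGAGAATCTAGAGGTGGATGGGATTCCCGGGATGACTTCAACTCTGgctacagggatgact
Eif4h-201: gacctgatgacagaggctacagggatgact
Eif4a2-203: cgcggattacaacagCAGagaacatggcgg
Eif4a2-201: cgcggattacaacagagaacatggcgg
Eif4a2-224, end of the reading frame: tgaaaactatattcacaggagtcgaTAG
Eif4a2-201, same place: tgaaaactatattcacagAATTGGCAGAGG
Eif4e2-206, start of the reading frame: ATGAACAACAAGTTCGACGCcttaaaagat
Eif4e2-204, start of the reading frame: ATGAGcttaaaagatgatgacagtggagac
The Eif4h exon keeps the reading frame, with 248 codons in Eif4h-205 and 228 in Eif4h-201. The Eif4a2 acceptors give 408 codons in Eif4a2-203 and 407 in Eif4a2-201, while the alternative exon leaves 362 codons in Eif4a2-224. The Eif4e2 forms have 245 codons in Eif4e2-206 and 240 in Eif4e2-204.

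Initiation factor genes were read at high levels as a group. Replicate 1 held 10042 member reads among 773408 reads on annotated genes, or 1.30%, and replicate 2 held 9723 among 722647, or 1.35%. Levels are given as CPM, the count per 1e6 reads on annotated genes, and the members summed to 13219 ± 333 CPM (SD, n = 2, as for every mean below). The median member stood at 189 CPM, against 13.5 CPM over all genes with reads, and 43 of the 48 members lay above that median of all genes. Of the members 34 reached 100 CPM, 10 stood between 10 and 100 CPM and 4 below 10 CPM. All 48 had reads in replicate 1 and 47 in replicate 2. Eif2s3y, Eif4e1b and Eif4ebp3, further genes of these families in the annotation, had 0 reads in both libraries, a count that allows a level of up to 3.88 CPM in replicate 1 and, in replicate 2, of up to 4.15 CPM, each being 3 counts. A long read stands for a single RNA molecule, so CPM were not divided by transcript length. For some comparisons between members, CPM per kilobase of transcript is given too. The skeletal myoblast markers Des, Myog, Cdh15, Myf5 and Myod1 were all read in both libraries. Des had 881 and 1187 reads, Myog 438 and 454, Cdh15 158 and 168, Myf5 215 and 60 and Myod1 119 and 127. Of 15 markers of other cell types 5 had any read, at most 2 in a library, with Ptprc, Cdh5, Epcam and Adipoq at 0.

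**Figure D1:**
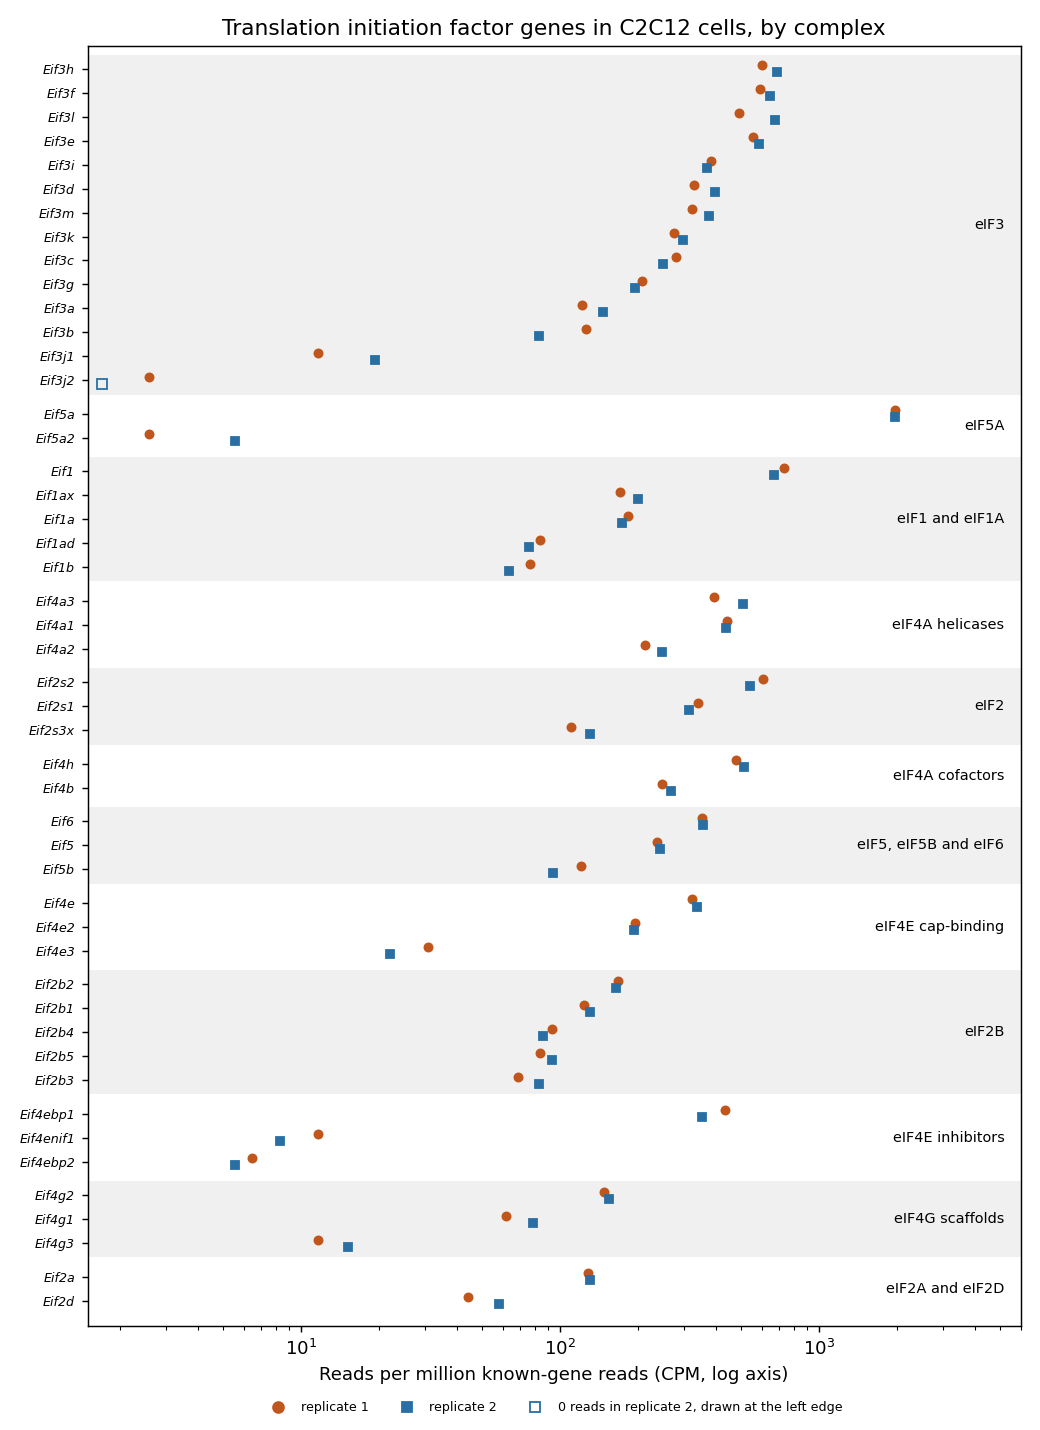
Level of each of the 48 initiation factor genes in CPM on a log axis, grouped by complex, with replicate 1 as circles above replicate 2 as squares and no error bars. Eif5a lies at 1969 and 1958 CPM, apart from the rest, and the 12 core subunits of eIF3 lie between 83.0 and 686 CPM. The open square is Eif3j2, which had 0 reads in replicate 2.

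The highest member by far was Eif5a (ENSMUSG00000078812.10; chromosome 11, 69916714 to 69921958, minus strand), which encodes the form of eIF5A made in most tissues, a factor that carries the modified lysine hypusine. It had 1523 reads in replicate 1 and 1415 in replicate 2, or 1964 ± 7.87 CPM, and ranked 47th of all genes read. It alone made up 15.2% and 14.6% of the member reads. The libraries were close here, with a log2 ratio of replicate 1 over replicate 2 of 0.01. Its paralogue Eif5a2 had 2 and 4 reads, so its level rests on almost no reads. Eif5a also led per kilobase, at 1462 ± 5.86 CPM per kb, with Eif1 next at 531 ± 31.0 CPM per kb. The enzymes that make hypusine were both present, Dohh with 130 reads in each library and Dhps with 86 and 96 reads.

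The eIF3 scaffold, the largest initiation factor, coats the small subunit and took the largest share of the complexes, 4516 ± 304 CPM over 14 genes. In CPM a group of 4 subunits led at similar levels, each above 550 CPM on average. Eif3h had 604 and 686 CPM, Eif3f 592 and 645 CPM, Eif3l 490 and 678 CPM and Eif3e 556 and 588 CPM. Eif3h and Eif3f encode the MPN-domain subunits. Both lay above Eif3e in each library, without overlap of the ranges. Eif3h was above Eif3f in each library, but their ranges overlapped, and the range of Eif3l overlapped those of all the others. Per kilobase Eif3e was above Eif3f, at 380 ± 15.1 against 246 ± 14.8 CPM per kb. A middle group followed, with Eif3i at 375 ± 8.45, Eif3d at 363 ± 47.7, Eif3m at 349 ± 36.6, Eif3k at 287 ± 14.7, Eif3c at 265 ± 20.4 and Eif3g at 202 ± 9.23 CPM. These groups did not hold per kilobase. In mean level Eif3k (371 ± 19.0 CPM per kb) and Eif3i (334 ± 7.53) then lay above Eif3l (301 ± 68.5) and Eif3f. Eif3m, at 272 ± 28.5 CPM per kb, also lay above Eif3f in mean level. Eif3d encodes the subunit known to bind the cap of some mRNAs. Lowest among the 12 core subunits were Eif3a, the core scaffold of eIF3, at 122 and 147 CPM, and Eif3b, its partner at the core, at 125 and 83.0 CPM. Eif3b was the lower of the pair in mean CPM and Eif3a the lower per kilobase. Eif3h thus stood 6.19-fold above Eif3b in mean CPM, and per kilobase 19.0-fold above Eif3a. The 19.0-fold takes Eif3a at 5125 bases, while its median model was 2599 bases long. Eif3j, the loosely bound subunit, is encoded by a gene pair: Eif3j1 had 9 and 14 reads and Eif3j2 2 and 0 reads. Taking the pair together as the lowest subunit, eIF3 spanned 38.4-fold in mean CPM, 115-fold on complete-model reads and 146-fold per kilobase. The size of this span depends on the scale, while its ends, Eif3h and Eif3j, were the same on all of these scales. It also rests on few Eif3j reads, as complete models held only 2 and 4 of Eif3j1 and 2 and 0 of Eif3j2. The 146-fold takes Eif3j1 at 5413 bases, while its median model was 533 bases long.

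Factors that carry the initiator tRNA came in unequal amounts. The gene for the beta subunit of eIF2, Eif2s2, had 610 and 544 CPM, that for the alpha subunit, Eif2s1, 340 and 314 CPM, and that for the gamma subunit, Eif2s3x, 110 and 130 CPM. The ranges of the libraries did not overlap between any pair of the 3 genes, so their order, Eif2s2 over Eif2s1 over Eif2s3x, was the same in each. Per kilobase it was also the same, with 227 ± 18.5, 96.1 ± 5.38 and 32.9 ± 3.91 CPM per kb. It was not the same on annotated coding transcripts alone, where Eif2s2 had 218 reads in each library, Eif2s1 240 and 220, and Eif2s3x 64 and 67, while a further 133 and 87 Eif2s2 reads lay on the non-coding Eif2s2-203. The alpha subunit is the target of the stress kinases; of these, Eif2ak1 had 26 and 37 reads, and Eif2ak2, Eif2ak3 and Eif2ak4 had at most 5 reads in a library. The 5 eIF2B genes lay closer together, between 75.8 ± 10.3 CPM for Eif2b3 and 166 ± 2.41 CPM for Eif2b2. Eif2b1 had 127 ± 4.21 CPM, Eif2b4 89.4 ± 5.16 CPM and Eif2b5, the catalytic subunit, 88.4 ± 6.13 CPM. Together eIF2B summed to 547 ± 13.02 CPM and eIF2 to 1024 ± 51.1 CPM. Eif2a and Eif2d, whose products can deliver a tRNA without eIF2, had 129 ± 1.47 and 51.0 ± 10.01 CPM.

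Among the scanning factors, Eif1, which guards start codon choice, led with 731 and 673 CPM, while its paralogue Eif1b had 76.3 and 63.7 CPM. The eIF1A genes Eif1ax and Eif1a stood at 186 ± 21.2 and 178 ± 6.60 CPM, a difference within the spread of the libraries. Per kilobase Eif1a was the higher, at 62.0 ± 2.30 against 35.9 ± 4.10 CPM per kb. Eif1ad, grouped with them by its symbol only, stood at 80.1 ± 5.61 CPM. Exons of Eif1ad share 428 bases with Banf1 on the other strand, a gene with 355 and 270 reads, and whether reads were assigned by strand is not given in the sources used here. Of the late-acting factors, Eif6, which keeps the large subunit apart until it is needed, had 356 ± 1.94 CPM, Eif5, the activator of GTP hydrolysis by eIF2, 239 ± 3.92 CPM and Eif5b, the GTPase of subunit joining, 107 ± 18.5 CPM. Bzw1 and Bzw2, mimics of eIF5, had 354 ± 35.0 and 128 ± 18.4 CPM.

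Of the gene families of eIF4F the scaffolds had the lowest summed level. They also have the longest transcripts of these families, with 5638 bases for Eif4g1, 7995 for Eif4g2 and 8134 for Eif4g3. Complete models held 22.9%, 57.1% and 10% of their reads, and the part of length in their low counts was not tested. The cap-binding gene Eif4e had 322 and 339 CPM and Eif4e2 194 and 192 CPM, while Eif4e3 had 24 and 16 reads. The scaffold gene Eif4g1 had 62.1 and 78.9 CPM and Eif4g3 9 and 11 reads. Eif4g2, whose product lacks the eIF4E binding site, was higher than both, at 147 and 155 CPM. The eIF4G genes summed to 235 ± 19.8 CPM, of which Eif4g2 held 151 ± 5.36 CPM. The eIF4E genes summed to 550 ± 4.66 CPM. Eif4a1 and Eif4a2 summed to 668 ± 23.6 CPM, or 1119 ± 107 CPM with Eif4a3, which is not a part of eIF4F. Per kilobase Eif4g1 had 12.5 ± 2.11 CPM per kb and Eif4e 233 ± 8.50 CPM per kb. This takes Eif4g1 at 5638 bases, while its median model was 1993 bases long. Eif4ebp1, the gene for the inhibitor 4E-BP1, had 432 and 354 CPM. It was above Eif4e in each library, though by 256 reads to 245 in replicate 2, and per kilobase it was below it, with 197 ± 27.5 CPM per kb. Its relative Eif4ebp2 was low, with 5 and 4 reads, none of them on a complete model. Eif4enif1, which encodes the eIF4E transporter 4E-T, was also low, with 9 and 6 reads. The helicase cofactors Eif4h and Eif4b had 496 ± 26.6 and 258 ± 15.2 CPM.

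The 3 eIF4A paralogues were all well read. Eif4a1 (chromosome 11, 69666936 to 69672423, minus strand), the main helicase of eIF4F, had 340 reads in replicate 1 and 316 in replicate 2, or 440 and 437 CPM. Eif4a2 (chromosome 16, 23107444 to 23114136, plus strand), its close relative, had 164 and 179 reads, or 212 and 248 CPM. Eif4a3 (chromosome 11, 119288363 to 119300089, minus strand) encodes a core protein of the exon junction complex and had 303 and 368 reads, or 392 and 509 CPM. Eif4a2 lay below both others in each library, whereas Eif4a1 was above Eif4a3 in replicate 1 and below it in replicate 2, so their order does not hold beyond the spread of the libraries. Per kilobase Eif4a2 was again the lowest, with 96.0 and 112 CPM per kb. Eif4a3 was then above Eif4a1 in each library, with 260 and 337 against 248 and 246 CPM per kb. Of the reads of all 3 genes Eif4a1 took 42.1% in replicate 1 (Wilson 95% interval 38.8 to 45.6) and 36.6% in replicate 2 (33.5 to 39.9). Eif4a2 took 20.3% (17.7 to 23.2) and 20.7% (18.2 to 23.6), and Eif4a3 37.5% (34.3 to 40.9) and 42.6% (39.4 to 46.0). Between the helicases that serve eIF4F alone, Eif4a2 made up 32.5% (28.6 to 36.7) in replicate 1 and 36.2% (32.1 to 40.5) in replicate 2. These intervals, and all others here, cover counting error only. The processed pseudogene Eif4a-ps4, 99.9% identical to Eif4a1 over 1218 bases, had 17 and 20 reads that cannot be told apart with certainty from those of Eif4a1; with them added the mean share of Eif4a1 was 40.7%, against 39.4% without them.

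Calls between the libraries were about as common among the members as among all tested genes. Of 8940 genes with at least 10 reads in sum, 356 (3.98%) differed by a two-sided exact binomial test. The test takes the library totals as given, and p-values were adjusted over all tested genes by the Benjamini-Hochberg method, with a threshold of 0.05. Of the members 45 were tested and 2 were called (Eif3l and Eif4a3), both lower in replicate 1, where 1.39% of all tested genes were lower and 2.6% higher. Eif3l (chromosome 15, 79075179 to 79094405, plus strand), with 379 reads in replicate 1 and 490 in replicate 2, had a log2 ratio of replicate 1 over replicate 2 of -0.47 (counting SE 0.10, adjusted p 1.60e-04 by the exact binomial test). Eif4a3 had a log2 ratio of -0.38 (counting SE 0.11, adjusted p 0.0243 by the same exact test), and this call was lost with TMM scaling (-0.32, adjusted p 0.0763), with DESeq2 size factors (-0.32, adjusted p 0.0915) and on complete-model reads (-0.32, adjusted p 0.0920), so the ratio stayed negative. At an unadjusted p under 0.05 by the exact binomial test there were 6 of the 45 members, against 1246 of the 8940 genes. The median log2 ratio was -0.07 over the 45 members and -0.06 over all tested genes, and 19 members had a positive and 26 a negative ratio. The test counts reads alone and allows for no spread between cultures. Of all called genes 232 were higher and 124 lower in replicate 1, a split of 303 to 82 under TMM scaling and of 315 to 78 under DESeq2 size factors. The myoblast markers Des and Myf5 also differed, with log2 ratios of -0.53 and 1.73, and their part in the result was not tested.

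**Figure D2:**
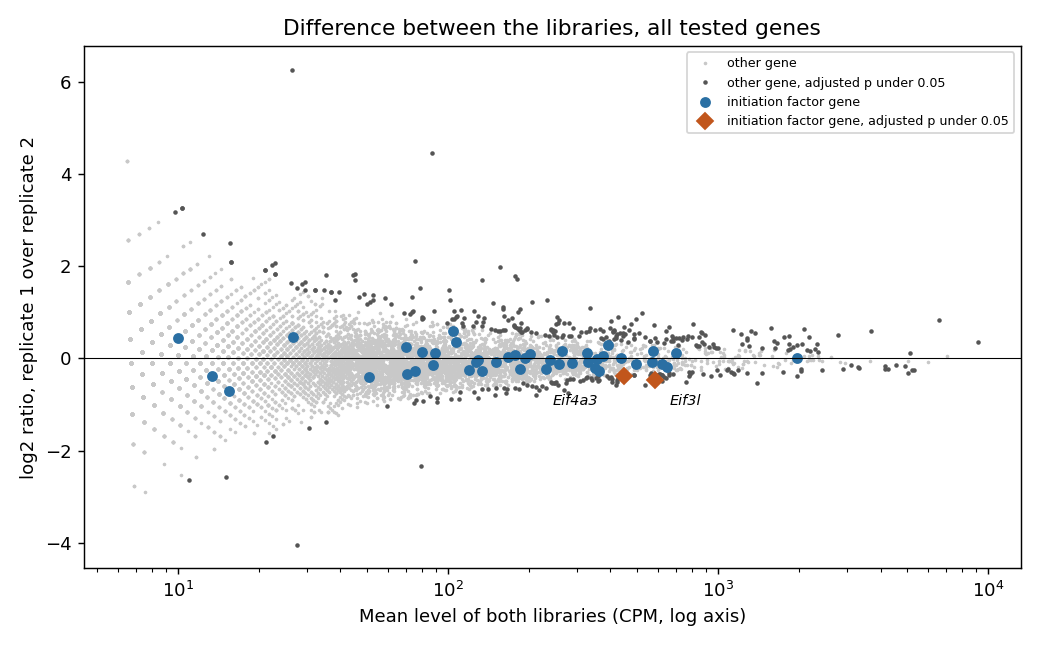
Log2 ratio of replicate 1 over replicate 2 against mean level in CPM on a log axis, for the 8940 tested genes. Grey points are other genes, dark points the called ones, circles the initiation factor genes and diamonds Eif3l and Eif4a3, the 2 called members, at -0.47 and -0.38. Most other members lie near the line at 0.

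Regulators of initiation outside the symbol rule were taken from a list of 27 genes, and all 27 were read in both libraries. Of the 24 tested, 1 was called higher in replicate 1 and 0 were called lower, where 3.98% of all tested genes were called. The median log2 ratio of the 24 was -0.10, against -0.06 over all tested genes. The called gene was Pdcd4, whose product blocks eIF4A, read 34 times in replicate 1 and 11 times in replicate 2, a log2 ratio of 1.49 with a counting SE of 0.49 (adjusted p 0.0402 by the exact binomial test); without the read filter the adjusted p was 0.0637. Complete models held 6 and 2 of these. Pabpc1, the poly(A)-binding protein that bridges the mRNA ends through eIF4G, had 133 and 170 reads, and Paip2, which binds it, 251 and 217. Of the signalling genes, Rps6kb1 had 59 and 63 reads, Mknk2, which encodes a kinase of eIF4E, 36 and 15, Larp1 16 and 17, and Mtor 4 and 9.

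Isoform use was judged on complete models, the annotated transcripts and the unannotated classes NIC (new combinations of known splice sites) and NNC (new splice sites), which do not show that a read reached both transcript ends. Of the 38 members with at least 20 such reads in each library, 34 had a single isoform at 10% or more of their complete reads in both, and 4 had more, namely Eif2s2, Eif4a2, Eif4e2 and Eif4h. The main model exceeded 90% in both libraries for 21 members and was protein-coding for all 38. Eif5a-210 took 96.2% and 95.9% of the complete reads of Eif5a, Eif4a1-213 95.7% and 93.2% of those of Eif4a1, and Eif4a3-201 93.1% and 94.1% of those of Eif4a3. Whether the main model took the same share in both libraries was tested by Fisher's exact test in 4011 genes, of which 4 (0.0997%) were called, and in none of the 37 members tested. At an unadjusted p under 0.05 by the same exact test there were 3 of the 37 members (Eif2b4, Eif3i and Eif2s2), against 167 of the 4011 genes. Eif2b4-201 had 43 of 60 complete reads in replicate 1 and 51 of 56 in replicate 2, or 71.7% and 91.1% (unadjusted p 0.00914, adjusted p 0.826, exact test).

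Eif4a2 was the most divided member. Its main model Eif4a2-201 took 58 of 145 complete reads in replicate 1 and 71 of 159 in replicate 2, or 40.0% and 44.7%. Eif4a2-203, with the upstream acceptor, took 23 reads in each library, or 15.9% and 14.5%. Counted over all reads that span the place, the 3 bases shown in capitals in Eif4a2-203 were kept in 36 of 146 reads (24.7%, Wilson 95% interval 18.4 to 32.2) in replicate 1 and 43 of 160 (26.9%, 20.6 to 34.2) in replicate 2. The alternative exon that brings the early TAG was spliced in by 44 of 152 reads (28.9%, 22.3 to 36.6) in replicate 1 and 52 of 169 (30.8%, 24.3 to 38.1) in replicate 2. A further 9 and 7 reads, 5.92% and 4.14%, ended in a last exon that begins at the same acceptor, as in Eif4a2-202. In the annotation the early TAG ends the reading frame of both forms. Skipping of the fourth exon (23109120 to 23109259, 140 bases) was seen in 22 of 152 reads (14.5%, 9.76 to 20.9) and 17 of 172 (9.88%, 6.26 to 15.3). For all of these events the intervals of the libraries overlap, which is not a test of a difference.

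Eif4h was split between the forms with and without its 60-base exon. The exon was included in 108 of 286 reads (37.8%, Wilson 95% interval 32.3 to 43.5) in replicate 1 and 111 of 325 (34.2%, 29.2 to 39.5) in replicate 2, so the form without it led in both. Eif4h-201 and Eif4h-205 took 58.6% and 36.7% of complete reads in replicate 1, and 65.0% and 33.8% in replicate 2.

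Eif4e2, whose product 4EHP binds the cap without joining eIF4G, began at either of 2 first exons, shown above with their start codons. The upstream exon (87213914 to 87214019) was used in 39 of 131 reads (29.8%, 22.6 to 38.1) in replicate 1 and 52 of 125 (41.6%, 33.3 to 50.4) in replicate 2, the rest using the downstream exon (87214286 to 87214495). The sixth exon was joined to something other than the usual seventh exon in 25 of 143 reads (17.5%) and 18 of 127 (14.2%). By contrast Eif5a used its far first exon (69921163 to 69921386) in 1352 of 1395 reads (96.9%) and 1303 of 1344 (96.9%), with the near first exon in 14 and 17 reads.

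Eif2s2 kept an intron in a sizeable share of its reads. The intron at 154884447 to 154887703 on chromosome 2, 3257 bases long, was kept in 135 of 451 reads (29.9%, 25.9 to 34.3) in replicate 1 and 87 of 376 (23.1%, 19.2 to 27.7) in replicate 2. Nearly all of these matched Eif2s2-203, an annotated retained-intron transcript with no coding sequence, which took 133 and 87 complete reads. The coding model Eif2s2-201 took 190 of 365 and 188 of 310 complete reads, or 52.1% and 60.6%. A short intron of 69 bases within the last exon, spliced in Eif2s2-205, was removed in 30 of 220 reads (13.6%) and 32 of 220 (14.5%). The pseudogene Gm9892, 99.5% identical to Eif2s2, had 12 and 13 reads.

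**Figure D3:**
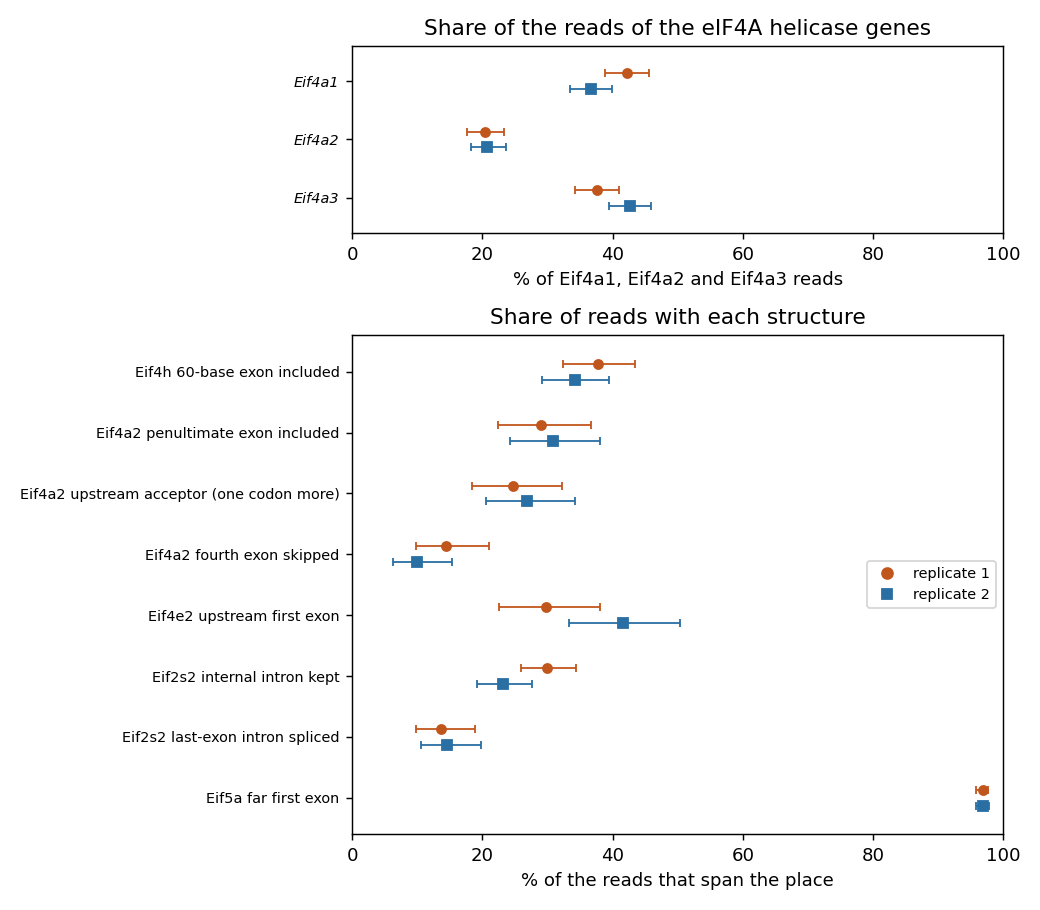
Upper panel, share of the reads of the eIF4A helicase genes taken by each gene; lower panel, share of the reads spanning a place that show the named structure, both in percent with Wilson 95% intervals, replicate 1 as circles above replicate 2 as squares. Eif4a2 stays near 20% in both libraries, and the intervals of the libraries overlap for all 8 structures. Overlap is not a test of a difference, and none was run on these shares.

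Unannotated complete structures were many but thin. The members had 453, of which 338 rested on a single read and 83 were seen in both libraries. With at least 5 reads in one library and 1 in the other there were 14. The best supported was a form of Eif4a2 with 13 and 14 reads, 8.97% and 8.81% of its complete reads. In it the alternative exon ran on 4 bases past its end in Eif4a2-224, to a donor whose intron begins at 23112462. By the lower count of the libraries, next came a form of Eif3h with 15 and 12 reads whose intron of 51842621 to 51865321 on chromosome 15 was shifted by 4 bases at both ends. A form of Eif3k with 8 and 10 reads followed, which combined annotated introns in a new way, and then a form of Eif3l with 8 and 6 reads that had an intron start shifted by 2 bases. Another form of Eif3h, with 5 and 7 reads, was shifted by 4 bases at 1 end, and a form of Eif4e2 with 5 and 5 reads combined annotated introns in a new way. The forms of Eif4a2 and the second of Eif3h were classed as NIC, so by the definition of that class their splice sites are known ones. The first form of Eif3h and that of Eif3l were classed as NNC. Whether shifts of so few bases come from the RNA or from the alignment was not tested.

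How much of a member was covered fell with the length of its transcript. Complete models took 83.1% of member reads in replicate 1 and 87.6% in replicate 2, against 84.0% and 88.3% over all annotated genes. Over the 44 members with at least 20 reads in sum, the complete share had a Spearman correlation of -0.63 with the annotated transcript length and -0.69 with the number of exons. These points share their libraries, and length and exon number vary together. The median share was 93.6% for 19 members under 2000 bases, 87.0% for 17 between 2000 and 4000 bases and 24.5% for 8 above 4000 bases. Eif1ax, at 5172 bases but with 7 exons, stood out among the long ones with 92.1%. At the other end were Eif5b (1.24%), Eif3a (7.0%), Eif4g3 (10%) and Eif4g1 (22.9%). Their CPM mostly count partial models, and isoforms could not be compared for these genes.

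**Figure D4:**
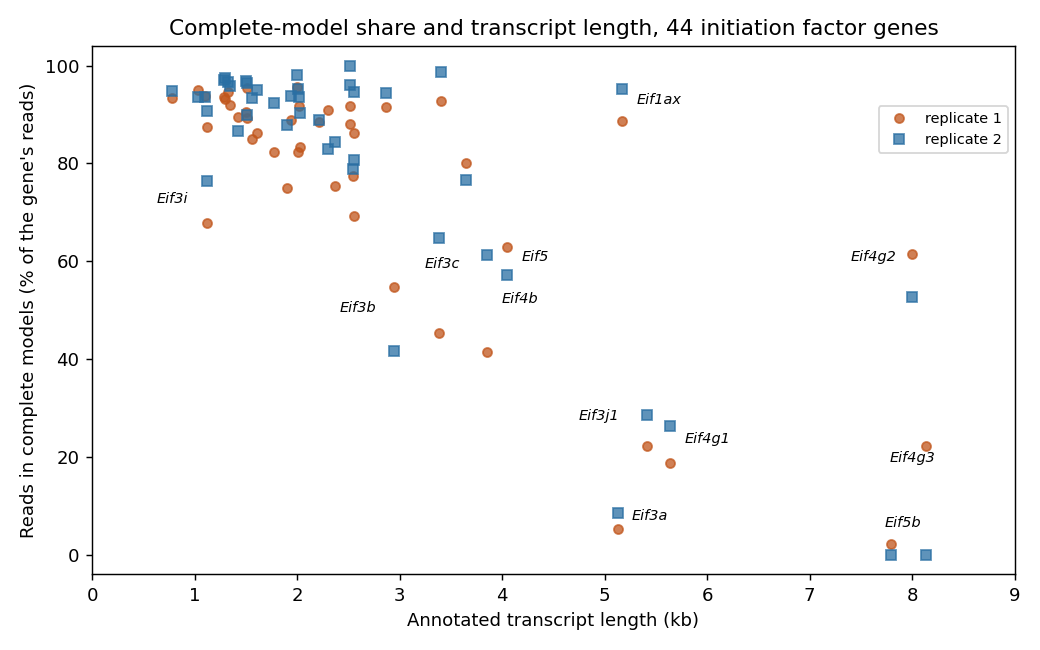
Share of each gene's reads in complete models, in percent, against annotated transcript length in kilobases, for the 44 members with at least 20 reads; circles are replicate 1 and squares replicate 2. Members under 2000 bases have a median of 93.6%, while Eif5b, Eif3a and Eif4g3 lie at 10% or less in sum and Eif1ax at 92.1%.

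Some of the incomplete reads lay on models that hold the first exons and end before the last exon. Such prefix models made up 3.60% of member reads in replicate 1 and 3.53% in replicate 2, against 1.59% and 1.69% over all genes. Of the reads of Eif5b, 76 of 93 and 59 of 68 lay on prefix models, and of those of Eif3a 50 of 94 and 64 of 106. Among members 12 prefix structures had at least 10 reads in sum. The deposited end of the model was the same base in both libraries for 9 of them, and 11 agreed within 10 bases. For 4 of them it was an annotated transcript end. The files give the end of a model and not of each read, so this agreement does not show that read ends recurred. The next 20 bases of the spliced coding sequence after 3 such ends, shown with A in capitals because these 3 ends lay before A-rich stretches and were the same in both libraries or within 10 bases, were as follows, on mm10.
Eif5, after chromosome 12 position 111541727, plus strand: AAAgAAAgAAAAggAAAAgA
Eif5b, after chromosome 1 position 38021811, plus strand: gAAcgAttAgAAcAAgAAAA
Eif2s2, after chromosome 2 position 154884343, minus strand: AgAAgAAgAtgAAAtActAg
The Eif5 window holds 15 A and followed a 7-exon prefix with 19 and 26 reads, whose end is an annotated transcript end and lay at 111541735 in the other library, the Eif5b window 12 A after a 5-exon prefix with 23 and 27 reads, and the Eif2s2 window 11 A after a 4-exon prefix with 79 and 60 reads. The Eif2s2 end is also that of the intron-retaining Eif2s2-203. A 4-exon prefix of Eif5b with 40 and 24 reads was followed by 14 A, but its end differed between the libraries. Over the 12 ends the median was 8.5 A in 20 bases and 3 had at least 12. Over all 138118 windows of 20 bases in the 48 member transcripts the median was 5 A and 1.55% had at least 12. These 3 sequences were chosen after their values were seen, single-read ends are not in the files used here, and whether A-rich stretches set these ends was not tested.

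Other incomplete reads lacked the 5′ end instead. Models without the first exons made up 8.82% of member reads in replicate 1 and 6.73% in replicate 2, against 6.90% and 5.62% over all genes. The commonest was a form of Eif3i with 10 of its 11 exons, read 68 and 56 times, which left its complete share at 67.8% and 76.4%. Single-exon reads were uneven between the libraries in some members and not in others, a difference that was not tested; the genes named here were chosen after their values were seen. Eif4b had 65 and 21 incomplete single-exon reads, and unspliced reads at the 3′ end of Eif5a numbered 62 and 19 and of Eif4a1 39 and 9. Such reads of Eif2s3x numbered 12 and 15 and those of Eif4g2 11 and 9. For Eif4h 77 single-exon reads in replicate 1 were classed as incomplete and 42 in replicate 2 as genomic, so the class itself was not the same in both libraries.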

How the data were processed

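The data are 2 long-read libraries of C2C12 total RNA, 1 group. The deposited tables hold the authors' raw counts for each transcript model, not normalised, and every listed model has at least 1 read. Per the file headers, alignment was to mm10 and annotation against GENCODE M21. Unannotated models name TALON as their source. Aligner, filters and use of strand: not given in the sources used here. Replicate 1 has 791850 reads in all and replicate 2 has 735077.

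Counts were summed over the models of a gene, and CPM used reads on annotated genes. Log2 ratios used an offset of 0.5 reads. Structures were matched between libraries by their intron chain, and events were counted over all models spanning the place. The transcript taken for length was the most used coding one, or the longest where none reached 20% of the reads. Pseudogenes were matched by BLAST 2.17.0 (at least 90% identity over 50% of the pseudogene). Python 3.11.15, scipy 1.17.1, R 4.3.3, edgeR 4.0.16 and DESeq2 1.42.0 were used, the last 2 for scaling factors only, since 1 group of 2 leaves no contrast for their tests. DESeq2 size factors were taken over tested genes. The tests were tried on simulated data.

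Members, lists, tests and alternatives were chosen with earlier results of these data known. All members were named by complex; isoform detail was given for the eIF4A genes and members with 2 or more used isoforms, besides Eif5a and Eif2b4, chosen after their values were seen, and the 6 best supported unannotated structures were named.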

Additional observations from a re-analysis of the deposited data

How the results depend on the processing

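No paired analysis was possible because the series has 1 group. The test of levels between the libraries was repeated with TMM scaling, DESeq2 size factors, no read filter, a minimum of 50 reads and complete models alone. All genes called numbered 356, and between 301 and 406 in these repeats. Members called numbered 2, but 1 with TMM scaling and 1 with DESeq2 size factors, where Eif3l remained and Eif4a3 was lost; the 2 on complete models were Eif3l and Eif3b (log2 ratio 1.04, adjusted p 0.0485 by the exact binomial test, against 0.59 and 0.167 on all models). Eif3l was called in all 5 repeats, with log2 ratios of -0.41 to -0.47. The isoform counts of 4 genes and 0 members were the same at minimums of 10 and 50 complete reads. Pdcd4 had too few reads for the 50-read minimum and for complete models. The eIF3 span of 38.4-fold was 115-fold on complete models and 146-fold per kilobase, and 35.4-fold without replicate 1 and 42.5-fold without replicate 2. Each of these spans rests on few Eif3j reads. Leaving out a replicate gave 12984 to 13455 CPM for the sum of members, 36.6% to 42.1% for the Eif4a1 share and 83.1% to 87.6% for the complete share. Members with 2 or more used isoforms numbered 4, and 5 with either replicate alone, 5 at a 5% threshold and 3 at 20%. Adding reads of pseudogenes matched by sequence, an alternative chosen after seeing the data, moved the sum to 13281 CPM. None of these repeats turned a tested difference round. Per kilobase Eif4ebp1 and Eif4e changed order, as did Eif3a and Eif3b, Eif3e and Eif3f, and Eif1ax and Eif1a. The order also changed among further eIF3 subunits and among the eIF2B genes, and not every such change is named. Depth limits the members below about 10 reads, Eif3j2, Eif4ebp2 and Eif5a2, for which no difference was detectable.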
